A study of Mus musculus with 3 samples.

Results

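The blood-clotting genes described here are F8, F3, Vwf, Tfpi, Thbd, Procr, Plat and Serpine2, 8 of the 31053 genes listed, followed through the endothelial and stromal cells of mouse bone marrow. They are a list of genes chosen by name for their roles in clotting, with no threshold on a measured value. The choice was made with earlier results of these data known. Single-cell RNA sequencing read 3 libraries of tibial marrow, 1 per genotype. VC came from Cdh5CreERT2;Vegfc flox/flox mice, which carry a tamoxifen-activated Cre under the Cdh5 promoter, active in endothelium, that can delete the floxed gene. FLOX came from Vegfc flox/flox mice with no Cre named, and WT from wild-type mice. All animals were of strain C57Bl/6JCrl and all received tamoxifen by gavage. The sources used here give neither their number per library nor the sorting gates, and mixing of animals is likewise not stated.

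Barcodes were kept from 500 genes upward if mitochondrial UMIs (unique molecular identifiers, 1 per captured transcript) made up 10% or less. LepR stromal cells, the perivascular cells that express the leptin receptor, had at least 50 Cxcl12 UMIs, at least 1 UMI of Lepr or Adipoq and at most 2 of Cdh5. Arterial and sinusoidal endothelial cells had at least 1 Cdh5 UMI and under 50 Cxcl12 UMIs. Arterial cells also had at most 1 Stab2 UMI and at least 2 of the genes Sox17, Sema3g, Fbln2 and Gja4, and sinusoidal cells had at least 2 Stab2 UMIs. These thresholds gave 466, 1107 and 264 LepR stromal cells in VC, FLOX and WT, 89, 189 and 58 arterial cells, and 1643, 3200 and 2992 sinusoidal cells. None of the 8 genes entered the thresholds, but their levels varied with the distance from them, as given below for cells next to the thresholds. No authors' cell annotation was used, and a difference from the study's own cell types may come from these rebuilt classes.

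Clotting starts when tissue factor, encoded by F3, meets factor VII of the plasma, and it is amplified by factor VIII (F8), a cofactor that circulates bound to von Willebrand factor (Vwf). Endothelium holds the process in check: tissue factor pathway inhibitor (Tfpi) blocks the starting complex, thrombomodulin (Thbd) turns thrombin into an activator of protein C, and the endothelial protein C receptor (Procr) presents protein C to it. Tissue plasminogen activator (Plat) starts the breakdown of fibrin, and protease nexin 1 (Serpine2) is a serpin that inhibits thrombin and plasminogen activators. Endothelial cells are the known source of factor VIII, and Procr is also known as a surface marker of blood stem cells.

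Promoters are shown for F8 and Tfpi, which were highest in sinusoidal cells, and for Serpine2, which was highest in LepR stromal cells. They come from RefSeq (build GRCm38.p6), 250 bases before to 50 after each start, and 5 of the 8 genes matched that table. Each is read 5′ to 3′ on the gene's strand. Capitals mark matches, on either strand, to motifs of 5 kinds. The letters were AGGAAG for ETS factors, AGATAA for factors of the GATA family, GGGCGG for those of the SP family, TATAAA for the box of that name and TGANTCA for AP-1.
F8, chrX:75379992-75380291, minus strand: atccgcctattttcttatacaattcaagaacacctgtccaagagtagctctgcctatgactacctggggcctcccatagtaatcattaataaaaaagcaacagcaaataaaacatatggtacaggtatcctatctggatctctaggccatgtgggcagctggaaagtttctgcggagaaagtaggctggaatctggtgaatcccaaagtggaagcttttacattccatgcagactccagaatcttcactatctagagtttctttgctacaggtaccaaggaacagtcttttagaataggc
Tfpi, first start, chr2:84476710-84477009, minus strand: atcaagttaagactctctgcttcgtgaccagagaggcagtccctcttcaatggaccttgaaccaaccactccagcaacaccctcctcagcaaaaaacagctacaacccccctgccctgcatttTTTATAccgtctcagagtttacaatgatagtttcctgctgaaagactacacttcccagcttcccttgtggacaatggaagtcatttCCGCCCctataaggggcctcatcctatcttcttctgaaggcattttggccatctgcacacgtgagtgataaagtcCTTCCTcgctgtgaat
Tfpi, second start, chr2:84474125-84474424, minus strand: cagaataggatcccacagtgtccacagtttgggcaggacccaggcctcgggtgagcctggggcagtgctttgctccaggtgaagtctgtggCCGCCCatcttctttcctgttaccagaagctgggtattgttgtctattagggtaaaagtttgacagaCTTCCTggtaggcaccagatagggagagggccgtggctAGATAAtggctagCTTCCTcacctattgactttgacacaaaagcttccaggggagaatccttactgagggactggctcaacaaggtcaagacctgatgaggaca
Serpine2, chr1:79858616-79858915, minus strand: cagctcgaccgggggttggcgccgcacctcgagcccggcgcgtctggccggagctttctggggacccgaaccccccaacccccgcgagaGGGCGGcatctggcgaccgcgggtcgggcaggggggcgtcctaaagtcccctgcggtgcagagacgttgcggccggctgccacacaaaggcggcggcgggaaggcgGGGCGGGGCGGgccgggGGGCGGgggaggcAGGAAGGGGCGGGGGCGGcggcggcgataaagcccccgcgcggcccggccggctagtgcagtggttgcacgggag

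The F8 window held 42.3% G and C and no match to any of the 5. The Tfpi windows held 48.0% at the first start, with 1 match each to ETS, SP and TATA, and 52.3% at the second, with 2 matches to ETS and 1 each to GATA and SP. The Serpine2 window held 77.7% G and C and 41 CpG dinucleotides, with 6 matches to SP, of which 2 overlap each other, and 1 to ETS. Of the windows not shown, that of F3 held 70.3% G and C, with 3 matches to SP, 1 to TATA and 2 to AP-1. That of Procr held 58.3%, with 1 match to AP-1. Over the 32851 promoter windows in the table the median G and C content was 52.7%, and the motifs were present in 35.4% (ETS), 11.2% (GATA), 35.7% (SP), 13.6% (TATA) and 7.81% (AP-1) of them. A match is a run of letters and not a measured binding site. The F8 and Serpine2 windows, set by their RefSeq starts, lie wholly inside the gene spans given next and not at their upstream ends. Other starts of these genes are not covered. The genes lie on GRCm38 at chrX:75172715-75382615 (F8, minus strand), chr3:121723537-121735048 (F3, plus), chr6:125546774-125686679 (Vwf, plus), chr2:84432855-84476775 (Tfpi, minus), chr2:148404466-148408188 (Thbd, minus), chr2:155751117-155755471 (Procr, plus), chr8:22757727-22782844 (Plat, plus) and chr1:79794197-79861180 (Serpine2, minus), all annotated as protein-coding.

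The libraries held 37361779 UMIs in VC, 61758462 in FLOX and 56853574 in WT, and 12790 of 15624 barcodes were kept, with median depths between 8702 and 10917 UMIs. Between 5 and 10 barcodes were shared by each pair of libraries and 0 by all 3. The targeted gene Vegfc was read mainly in LepR stromal cells, at 145 CPM in VC, 201 in FLOX and 246 in WT (CPM are UMIs of the gene per 1e+06 UMIs of the class). Sinusoidal cells held 6 Vegfc UMIs in VC, 17 in FLOX and 61 in WT, and arterial cells 0, 9 and 2. Reads come from the 3′ end of transcripts and which exon is floxed is not stated, so the deletion cannot be checked from them.

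Marker genes bore out the LepR stromal and sinusoidal labels in each library. All 9 pan-endothelial markers, among them Kdr and Pecam1, were at 10 CPM or more in arterial and sinusoidal cells. So were 5 of 6 sinusoidal markers, so these counts do not separate the classes, and Lyve1 stood at most at 0.198 CPM in sinusoidal cells. The 6 summed to 8476, 7197 and 7037 CPM in sinusoidal cells of VC, FLOX and WT, against 1820, 1621 and 2356 CPM in arterial cells. For the 5, the arterial level was at the median 14.9%, 18.2% and 31.2% of the sinusoidal one, and at most 95.6%, 90.8% and 126%. All 10 stromal markers, 2 of which (Lepr and Adipoq) entered the thresholds, were at 10 CPM or more in LepR stromal cells, among them Kitl at 2259 to 3095 CPM. The arterial label held in VC and FLOX, where all 7 arterial markers were at 10 CPM or more, and not in WT. WT arterial cells had 0 UMIs of Gja5 and Bmx, against 43.8 and 49.9 CPM of Gja5 and 25.5 and 34.9 CPM of Bmx in VC and FLOX, and their Hey1 was 5.63 CPM, against 64.1 and 66.7 CPM. They also had more of Kdr (2315 CPM, against 1024 in VC and 1138 in FLOX) and of the scavenger receptor gene Mrc1 (253 CPM, against 96.7 and 108). Differences of the 7 members tested that involve arterial cells are therefore also given without WT, and those of other clotting genes are not.

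Other cells' RNA was present and uneven. Neutrophil markers summed to 26348 and 26717 CPM in the arterial cells of VC and FLOX and to 346 CPM in those of WT, with S100a8 at 8459, 7781 and 131 CPM, and all 6 were detected in each. In sinusoidal cells they summed to 4212, 6942 and 719 CPM, and in LepR stromal cells to 8549, 3015 and 326 CPM in VC, FLOX and WT. Smooth muscle markers summed to 201, 151 and 7.03 CPM in arterial cells, with Acta2, Myh11, Des and Notch3 at 0 in WT, and to between 4.38 and 7.31 CPM in sinusoidal cells. Fibroblast and osteoblast markers summed to 244, 109 and 8.44 CPM in arterial cells and to 18.6, 16.9 and 22.6 CPM in sinusoidal cells. LepR stromal markers summed to 637, 852 and 402 CPM and to 245, 285 and 316 CPM. Of these 10, 2 were called higher and 4 lower in arterial than in sinusoidal cells. Erythroid markers summed to 1478, 60.8 and 1674 CPM in the LepR stromal cells of VC, FLOX and WT, 464, 23.1 and 107 CPM in arterial cells and 569, 26.3 and 2159 CPM in sinusoidal cells. B lineage markers summed to 392, 675 and 109 CPM, 78.4, 92.2 and 23.9 CPM, and 863, 1091 and 218 CPM in the same order, lowest in WT in each class. Platelet markers summed to at most 40.6 CPM in any of the 3 classes. The part of this RNA in the differences below was not tested, except that values without mixed droplets (cells with a UMI of Ptprc, Cd79a or Pf4, or at least 20 haemoglobin UMIs) are given where stated.

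The first comparison asks in which of the 3 classes each gene is expressed. F8, Tfpi, Thbd and Procr fell together in LepR stromal cells relative to sinusoidal cells, with log2 fold changes from -6.79 (F8) to -2.43 (Procr), and Serpine2 rose by 8.91. Arterial cells stood between them for F8, Tfpi and Thbd. Plat, which was low in sinusoidal cells, was higher in arterial cells of each library. Vwf was also called higher there, though WT arterial cells held 0 of its UMIs and the call was lost without FLOX. Raw UMIs were summed per class and library and tested with edgeR's quasi-likelihood test on the 9 sums, with the library as a block and Benjamini-Hochberg adjustment over the 13136 genes tested. The libraries are of 3 genotypes, so the test sets a class difference against its spread over them, and 7 of the 8 genes passed the count filter; F3 did not.

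Between LepR stromal and sinusoidal cells, 1 of the 7 was called higher (adjusted p under 0.05) and 4 lower, against a background of 61.4% of all genes called, 30.7% higher and 30.7% lower. Between LepR stromal and arterial cells 1 was higher and 5 lower, against 49.5% of genes called, 27.3% higher and 22.1% lower. Between arterial and sinusoidal cells 2 were higher and 4 lower, against 25.5% called, 10.4% higher and 15.1% lower. With median-of-ratios scaling the numbers for the 7 were the same, while that last split over all genes was 1618 higher and 1517 lower, beside 1362 and 1989. The median log2 fold change over the 7 was -2.43, -2.58 and -1.29 in the 3 contrasts, beside medians of -0.01, 0.08 and -0.10 over all genes tested. Without WT, where F3 also passed the filter, 1 of 8 members was higher and 6 lower in LepR stromal against arterial cells. Of all 14023 genes tested there, 3568 were higher and 2857 lower. In that contrast the log2 fold changes with all libraries were -4.25 for F8, -3.24 for Tfpi and 7.96 for Serpine2. Without WT they were -4.25, -3.14 and 7.47. Sharing classes, the contrasts are not independent of each other.

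**Figure D1:**
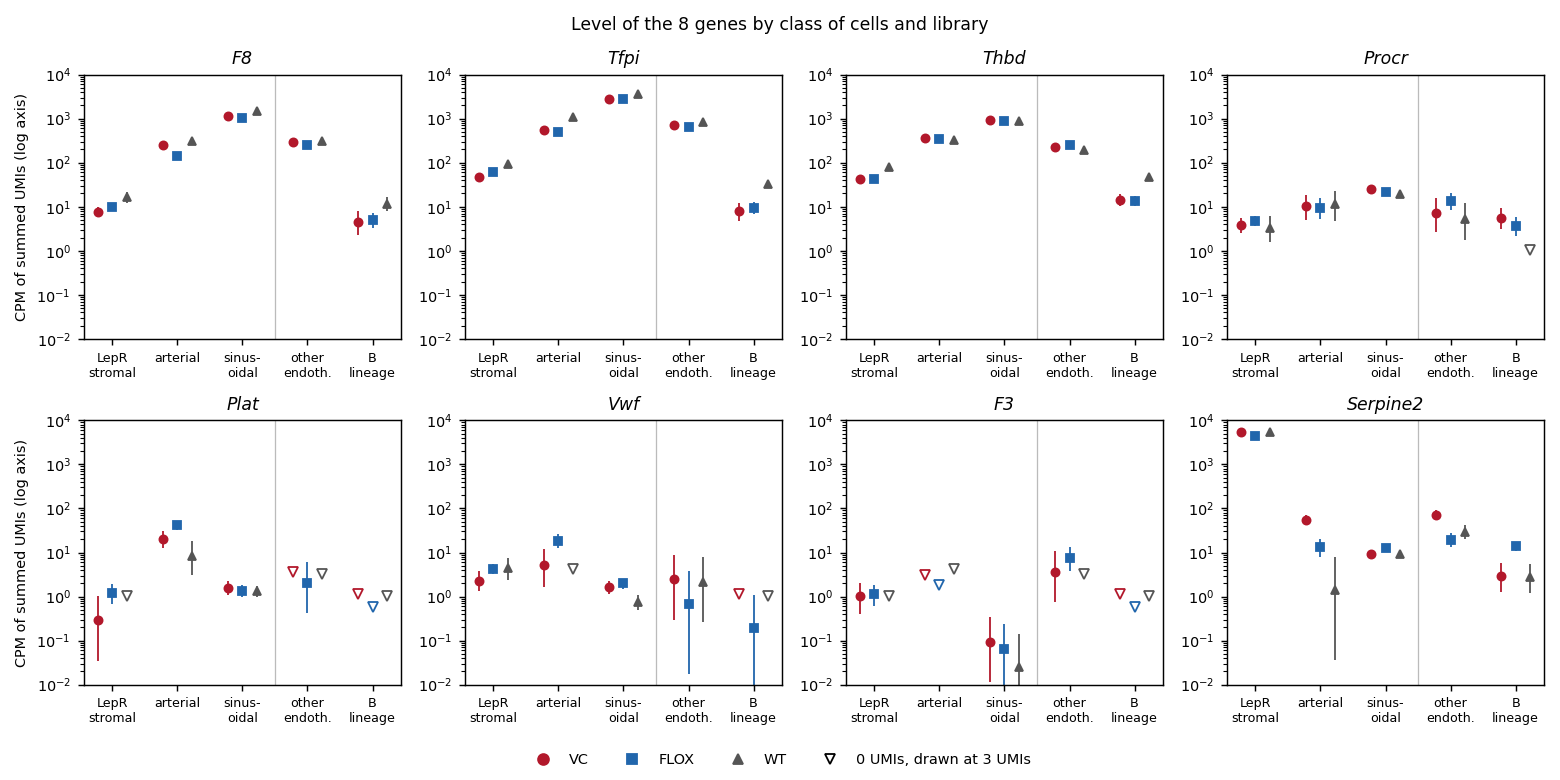
CPM of summed UMIs (log axis) of the 8 genes in 3 classes of cells and, right of the grey line, in B lineage cells and other barcodes with a Cdh5 UMI (labelled other endoth.), for VC (circles), FLOX (squares) and WT (triangles). Bars are exact Poisson 95% intervals and open triangles pointing down mark 0 UMIs, drawn at the level of 3 UMIs. F8, Tfpi and Thbd are highest in sinusoidal cells, Plat in arterial cells and Serpine2 in LepR stromal cells of each library.

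F8 stood at 7.61, 9.84 and 16.4 CPM in the LepR stromal cells of VC, FLOX and WT, at 256, 141 and 317 CPM in arterial cells and at 1141, 1013 and 1475 CPM in sinusoidal cells. The ranges of these summed levels did not overlap between the classes. Per library the LepR stromal level was 150-, 103- and 89.7-fold lower than the sinusoidal one, and the arterial level 4.47-, 7.16- and 4.66-fold lower. The fitted log2 fold changes were -6.79 ± 0.24 (SE) for LepR stromal against sinusoidal cells (edgeR adjusted p = 1.68e-09) and -2.54 ± 0.20 for arterial against sinusoidal cells (edgeR adjusted p = 6.82e-06; -2.68 without WT). Other barcodes with a Cdh5 UMI, which met neither endothelial threshold, held 296, 248 and 307 CPM. They are not a clean endothelial class: their pan-endothelial markers summed to 2567, 2323 and 2013 CPM, against 5182, 5323 and 5777 CPM in sinusoidal cells, their B lineage markers to 27882, 18682 and 12395 CPM and their neutrophil markers to 13752, 20948 and 60727 CPM. The part of that RNA in their F8 level was not tested. Among sinusoidal cells the quartiles of F8 per cell lay at 738 and 1522 CPM in VC, 644 and 1394 CPM in FLOX and 1026 and 1962 CPM in WT.

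After each cell was thinned to 2000 UMIs, which left out 7, 29 and 18 sinusoidal cells, an F8 UMI was found in 2.16%, 1.63% and 2.29% of LepR stromal cells and in 84.6%, 83.6% and 91.4% of sinusoidal cells of VC, FLOX and WT. Without thinning the shares were 8.58%, 8.58% and 10.6% in LepR stromal cells and 99.2%, 98.3% and 99.5% in sinusoidal cells. B lineage cells, which should lack F8, had one in 0.610%, 1.12% and 3.69% after thinning and in 6.06%, 6.03% and 9.23% before it, at median depths of 6644, 11576 and 4968 UMIs against 13581.5, 11315 and 10654 in LepR stromal cells. The exact 95% intervals of the thinned shares overlapped in each library, in WT at 0.845% to 4.92% for LepR stromal and 1.92% to 6.36% for B lineage cells. In CPM the stromal level was the higher one in WT too (16.4 against 11.6 CPM), so no order is read from the shares.

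Tfpi, whose product blocks the tissue factor complex, stood at 46.5, 60.3 and 92.6 CPM in the LepR stromal cells of VC, FLOX and WT, at 546, 499 and 1059 CPM in arterial cells and at 2853, 2732 and 3609 CPM in sinusoidal cells. Again the ranges of the summed levels did not overlap between the 3 classes. LepR stromal levels were 61.4-, 45.3- and 39.0-fold lower than sinusoidal ones (log2 fold change -5.59 ± 0.21, edgeR adjusted p = 2.43e-09), and arterial levels 5.23-, 5.48- and 3.41-fold lower (-2.35 ± 0.18, edgeR adjusted p = 6.77e-06; -2.62 without WT). A Tfpi UMI was found in 45.5%, 51.6% and 81.0% of thinned arterial cells and in 98.2%, 98.0% and 99.0% of thinned sinusoidal cells. In LepR stromal cells the thinned shares were 10.2%, 10.2% and 11.5%, against 1.83%, 3.63% and 7.08% of B lineage cells.

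Thbd, the thrombin cofactor for protein C activation, stood at 42.8, 43.6 and 78.9 CPM in the LepR stromal cells of VC, FLOX and WT, at 363, 347 and 326 CPM in arterial cells and at 920, 890 and 892 CPM in sinusoidal cells. Its arterial levels were nearest to the sinusoidal ones among the 3 abundant endothelial genes, 2.53-, 2.56- and 2.73-fold lower, with an SD of 0.06 over the 3 log2 ratios. The fitted log2 fold changes were -4.10 ± 0.22 for LepR stromal against sinusoidal cells (edgeR adjusted p = 3.06e-08), -2.58 ± 0.21 for LepR stromal against arterial cells (edgeR adjusted p = 1.99e-06; -2.89 without WT) and -1.52 ± 0.20 for arterial against sinusoidal cells (edgeR adjusted p = 2.31e-04; -1.54 without WT). Thbd was found in 7.78%, 9.05% and 16.0% of thinned LepR stromal cells and in 77.3%, 79.2% and 76.4% of thinned sinusoidal cells, beside 4.27%, 4.47% and 10.46% of B lineage cells. All of F8, Tfpi and Thbd were found together in 64.5%, 65.9% and 70.4% of thinned sinusoidal cells, and 5 of 1636, 10 of 3171 and 2 of 2974 had none of them.

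Procr, the receptor that hands protein C to the thrombin and thrombomodulin complex, stood at 3.88, 4.69 and 3.36 CPM in the LepR stromal cells of VC, FLOX and WT (27, 63 and 10 UMIs), at 10.2, 9.35 and 11.3 CPM in arterial cells (10, 15 and 8 UMIs) and at 25.2, 21.2 and 19.6 CPM in sinusoidal cells (541, 640 and 766 UMIs). The order of the classes was the same in each library. LepR stromal cells were 6.50-, 4.51- and 5.84-fold lower than sinusoidal cells (log2 fold change -2.43 ± 0.17, edgeR adjusted p = 2.84e-07) and arterial cells 2.47-, 2.26- and 1.74-fold lower (-1.29 ± 0.22, edgeR adjusted p = 0.00155; -1.44 without WT). The call between LepR stromal and arterial cells (-1.14, edgeR adjusted p = 0.00566; -0.99 without WT, edgeR adjusted p = 0.0334) was lost with stricter class thresholds (-0.87, edgeR adjusted p = 0.0886). Thinned shares were 4.71%, 3.88% and 3.87% of sinusoidal cells, against 0.610%, 0.838% and 0% of B lineage cells, where 0 of 325 WT cells allows up to 0.923%.

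**Figure D2:**
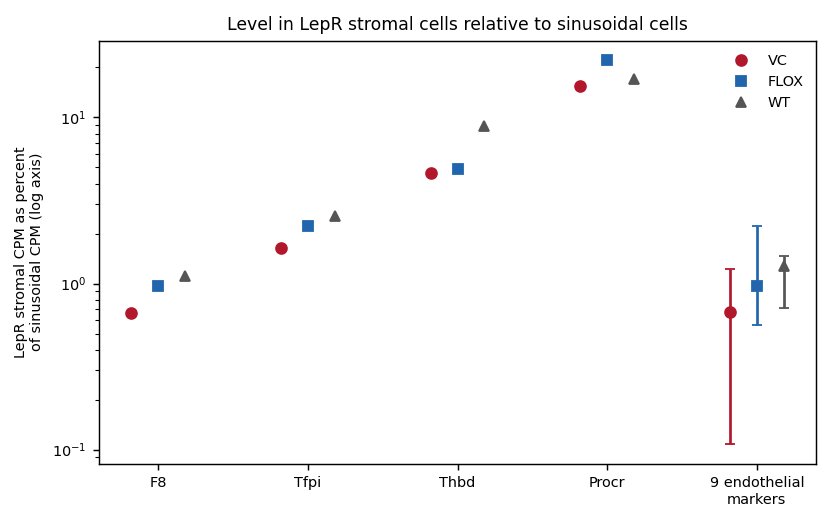
Level in LepR stromal cells as a percentage of the level in sinusoidal cells (log axis) for F8, Tfpi, Thbd and Procr in VC, FLOX and WT, beside the median of 9 pan-endothelial markers, whose bars run from the lowest to the highest marker. F8 sits within the range of these 9 markers in each library, and Thbd and Procr lie above it.

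What LepR stromal cells held of the endothelial genes was set beside endothelial markers measured in the same cells. The 9 pan-endothelial markers stood there at a median of 0.676% of their sinusoidal level in VC, 0.969% in FLOX and 1.27% in WT, with the highest at 1.22%, 2.23% and 1.46%. F8 stood at 0.667%, 0.970% and 1.11%, within that range. Tfpi, at 1.63%, 2.21% and 2.57%, was above the highest marker in VC and WT and just below it in FLOX. Thbd, at 4.65%, 4.90% and 8.84%, and Procr, at 15.4%, 22.2% and 17.1%, were above every marker of that list. The 5 sinusoidal markers measured in the same way stood at medians of 0.392%, 0.731% and 0.800%, with the highest at 4.69%, 4.96% and 5.95%. Against that highest value Thbd lay just below in VC and FLOX and above in WT. F8 and Tfpi lay below it and Procr above it in each library. B lineage cells, set against sinusoidal cells in the same way, held Thbd at 1.58%, 1.52% and 5.21% and Procr at 22.1%, 17.3% and 0% (5.58, 3.67 and 0 CPM), so the Procr percentage was higher in B lineage than in LepR stromal cells of VC. In LepR stromal cells with 0 Cdh5 UMIs, Thbd was 44.3, 41.2 and 77.7 CPM, close to the 42.8, 43.6 and 78.9 CPM over all of them, while F8 was 7.43, 7.03 and 11 CPM against 7.61, 9.84 and 16.4 CPM.

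Plat, the fibrin-clearing protease, was the gene of the set that was highest in arterial cells. It held 2, 16 and 0 UMIs in the LepR stromal cells of VC, FLOX and WT, 20, 66 and 6 UMIs in arterial cells (20.4, 41.1 and 8.44 CPM) and 34, 41 and 52 UMIs in the far more numerous sinusoidal cells (1.58, 1.36 and 1.33 CPM). The arterial level was 12.9-, 30.4- and 6.35-fold higher than the sinusoidal one, and the log2 fold change was 3.74 ± 0.50 (edgeR adjusted p = 3.12e-04). It was 4.15 without WT and 4.02 without mixed droplets. With at least 3 of the 4 arterial genes required, Plat stood at 22.8, 45.5 and 7.67 CPM. The lowest value was again that of WT, whose arterial cells lacked Gja5 and Bmx. It rests there on 28 cells with 391031 UMIs of all genes, too few to order the libraries. The difference between LepR stromal and arterial cells was -5.11 ± 0.59 (edgeR adjusted p = 3.14e-05; -5.10 without WT), a fitted value that rests in WT on 0 stromal UMIs, while LepR stromal and sinusoidal cells were not told apart (-1.38, edgeR adjusted p = 0.0710).

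Vwf, often used as an endothelial marker, was read at few UMIs in all 3 classes. It held 16, 58 and 13 UMIs in the LepR stromal cells of VC, FLOX and WT (2.30, 4.32 and 4.36 CPM), 5, 30 and 0 UMIs in arterial cells (5.09, 18.7 and 0 CPM, where 0 UMIs allows up to 4.22 CPM) and 35, 60 and 29 UMIs in sinusoidal cells (1.63, 1.98 and 0.742 CPM). The arterial and stromal ranges overlapped. Arterial cells were called higher than sinusoidal cells (log2 fold change 2.35 ± 0.64, edgeR adjusted p = 0.0210; 2.496 without WT), but the call was lost without FLOX (1.18, edgeR adjusted p = 0.601). There 12 of 189 FLOX arterial cells held the 30 UMIs and 5 of them held 23. B lineage cells held 0, 1 and 0 Vwf UMIs. LepR stromal cells were not told apart from sinusoidal cells (1.25, edgeR adjusted p = 0.0675) or from arterial cells (-1.10, edgeR adjusted p = 0.184). That last difference turned sign without FLOX and was called without WT (-1.71, edgeR adjusted p = 0.0148).

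F3, which starts coagulation, was at the edge of detection in all 3 classes. LepR stromal cells held 7, 15 and 0 UMIs in VC, FLOX and WT, in 4, 8 and 0 cells, and 12 of the 15 FLOX UMIs sat in 5 cells. Arterial cells held 0 UMIs in each library, which allows up to 3.05, 1.87 and 4.22 CPM, and sinusoidal cells held 2, 2 and 1 UMIs among 1643, 3200 and 2992 cells. In other barcodes with a Cdh5 UMI 3 VC UMIs came from 1 barcode and 11 FLOX UMIs from 2. F3 did not pass the count filter. With no filter it was called higher in LepR stromal than in sinusoidal cells (log2 fold change 3.36, edgeR adjusted p = 0.00259), as it was without WT, where it passed the filter (3.58, edgeR adjusted p = 0.00371), and the stromal UMIs behind both values are those of VC and FLOX. Against arterial cells, all at 0 UMIs, it was not called under either setting.

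Serpine2, the thrombin-inhibiting serpin, was highest in LepR stromal cells among the 3 classes. It stood at 5489, 4472 and 5314 CPM in the LepR stromal cells of VC, FLOX and WT and at 9.12, 12.9 and 9.16 CPM in sinusoidal cells, 602-, 347- and 580-fold higher in LepR stromal cells (log2 fold change 8.91 ± 0.55, edgeR adjusted p = 1.04e-07). A Serpine2 UMI was found in 99.6%, 99.5% and 98.9% of thinned LepR stromal cells, against 1.59%, 2.30% and 1.55% of thinned sinusoidal cells and 0.610%, 1.40% and 0% of thinned B lineage cells. Kept barcodes in none of the classes held 527, 645 and 218 CPM, with up to 272, 539 and 162 UMIs in 1 barcode, and those just below the Cxcl12 threshold are given below. The sinusoidal level was 0.166%, 0.288% and 0.172% of the stromal one, below the median of 8 stromal markers not used by the thresholds (0.991%, 1.34% and 0.969%). Arterial cells held 55, 21 and 1 UMIs, and 38 of the 55 in VC came from 1 cell. The difference between arterial and sinusoidal cells was not called (0.94, edgeR adjusted p = 0.255; 1.26 without WT, edgeR adjusted p = 0.0816) and turned to -0.48 without VC.

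Across the 15 sums of 5 classes in 3 libraries, each gene was set beside 4979 others by Pearson's r of log2(CPM + 10), as a description over sums that share libraries and depth. F8 was most like Flt4 (r = 0.993), Gatm (0.993) and Stab1 (0.992), Flt4 and Stab1 being sinusoidal genes. Tfpi was most like Sh3bp5, Gda and Insr (0.981 to 0.984), and Thbd most like Insr, Npr1 and Fcho2 (0.983 to 0.986). Procr had looser neighbours in Txnip (0.943), Atp6v0a2 and Ly96, Plat had Cdh13 (0.975), Mecom and Nebl, and Serpine2 had Gpx3 (0.994), Ndrg2 and Pdgfrb. Among the 8 genes, r was 0.984 for F8 with Tfpi, 0.981 for Tfpi with Thbd, 0.206 for Plat with Procr and -0.468 for F8 with Serpine2.

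Other genes of the clotting system came from 6 lists of 65 genes in all, of which 40 passed the count filter. Between LepR stromal and sinusoidal cells 22 rose and 10 fell, between LepR stromal and arterial cells 19 rose and 9 fell, and between arterial and sinusoidal cells 11 rose and 6 fell, against the background shares given above. LepR stromal cells held the kininogens, cofactors of the contact pathway: Kng1 stood at 514, 505 and 433 CPM in VC, FLOX and WT and at most at 1.25 CPM in either endothelial class (log2 fold change against sinusoidal cells 9.36 ± 0.21, edgeR adjusted p = 1.64e-10), and Kng2 was alike (9.32 ± 0.21). Of the 5 procoagulant genes tested, Kng1, Kng2 and Fgl2 rose in LepR stromal cells against both endothelial classes and F5 and F13a1 were not called. Of all genes, 30.7% rose against sinusoidal and 27.3% against arterial cells. The fibrinogen genes Fga, Fgb and Fgg held 0 UMIs in each of the 9 sums, and F9 and F12 held 1 UMI each over all 9.

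Of 9 fibrinolysis genes tested, 7 rose in LepR stromal relative to sinusoidal cells and 2 fell, against 30.7% of all genes in each direction. The broad protease inhibitor gene A2m stood at 37.8, 30.3 and 73.5 CPM in LepR stromal cells and at most at 0.0512 CPM in sinusoidal cells (log2 fold change 9.88 ± 0.26, edgeR adjusted p = 3.18e-10). Serping1, which encodes the inhibitor of C1 and of the contact proteases, stood at 2614, 2494 and 2787 CPM in LepR stromal cells and at 8.61, 6.22 and 5.04 CPM in sinusoidal cells (8.70 ± 0.52, edgeR adjusted p = 8.89e-08). The 2 that fell were Plau, the urokinase gene (-4.89 ± 0.37, edgeR adjusted p = 5.54e-07), and its receptor gene Plaur. Plau also fell in arterial relative to sinusoidal cells (-2.66, edgeR adjusted p = 0.00130), where 5 of the 9 rose, against 10.4% of all genes, among them Serping1 (2.03, edgeR adjusted p = 0.0169).

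Of 9 genes tested from the list of anticoagulants, 4 rose and 4 fell in LepR stromal relative to sinusoidal cells, against 30.7% of all genes each way. Relative to arterial cells 5 rose and 2 fell, against 27.3% and 22.1%. The list includes Gas6, a vitamin K-dependent relative of protein S, and being listed is no measure of anticoagulant activity. Gas6 stood at 3102, 3557 and 2867 CPM in LepR stromal cells and at 82.6, 82.0 and 76.7 CPM in sinusoidal cells. Ptgis, the prostacyclin synthase gene, held 0 UMIs in the arterial cells of each library, so its fitted value against them (10.3) is no measure of size; it stood at 17.8, 11.2 and 6.04 CPM in LepR stromal cells. Endothelial cells held Hs3st1, which makes the antithrombin-binding form of heparan sulfate (-6.64 ± 0.38 in LepR stromal against sinusoidal cells, edgeR adjusted p = 6.29e-08). Entpd1, whose product removes extracellular ATP and ADP, rose in arterial relative to sinusoidal cells (1.48, edgeR adjusted p = 2.27e-05), at 297, 289 and 212 CPM against 84.7, 82.6 and 92.6 CPM, and fell in LepR stromal relative to arterial cells (-4.84 ± 0.17, edgeR adjusted p = 4.58e-09). Tfpi2 fell in arterial relative to sinusoidal cells (-1.26, edgeR adjusted p = 7.44e-04).

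Both tested thrombin receptor genes fell in LepR stromal cells against both endothelial classes. Of all genes, 30.7% fell against sinusoidal and 22.1% against arterial cells. F2r stood at 2.15, 4.25 and 6.71 CPM in LepR stromal cells, 97.7, 73.5 and 124 CPM in arterial cells and 158, 118 and 135 CPM in sinusoidal cells (-5.06 ± 0.25 against sinusoidal cells, edgeR adjusted p = 1.88e-08), and F2rl3 fell by 4.74 on the log2 scale against arterial cells (edgeR adjusted p = 3.53e-05). Of 10 genes of factor processing and secretion, 5 rose and 1 fell in LepR stromal relative to sinusoidal cells, beside the same 30.7% each way. The 1 that fell was Selp, whose product is stored with von Willebrand factor in endothelial granules, at 1.00, 2.83 and 3.02 CPM in LepR stromal cells, 26.5, 19.9 and 60.5 CPM in arterial cells and 365, 404 and 477 CPM in sinusoidal cells (-7.45 ± 0.29 in LepR stromal against sinusoidal cells, edgeR adjusted p = 3.16e-09; -3.84 in arterial against sinusoidal cells, edgeR adjusted p = 2.26e-06). Cd63, a second granule protein gene, fell in arterial relative to sinusoidal cells (-1.61, edgeR adjusted p = 5.92e-06) and rose in LepR stromal relative to sinusoidal cells (1.95, edgeR adjusted p = 6.59e-08). Lman1 and Mcfd2, whose products carry factor VIII out of the endoplasmic reticulum, were not called between LepR stromal and sinusoidal cells.

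Of 5 clearance receptor genes tested, 3 rose and 1 fell in LepR stromal relative to sinusoidal cells, where 30.7% of all genes did either. Lrp1, an endocytic receptor for factor VIII, stood at 312, 310 and 398 CPM in LepR stromal cells and at most at 1.44 CPM in sinusoidal cells. Between arterial and sinusoidal cells 3 of the 5 rose, against 10.4% of all genes, among them Lrp1 (edgeR adjusted p = 0.0498) and Msr1 (1.45, edgeR adjusted p = 0.00154), with 11.2, 3.12 and 0 CPM of Lrp1 in the arterial cells of VC, FLOX and WT. Msr1, a scavenger receptor gene, fell in LepR stromal relative to arterial cells (-6.00 ± 0.40, edgeR adjusted p = 4.03e-07).

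The second comparison asks what differs in VC, the library in which Cre was present with floxed Vegfc. With 1 library per genotype no test was possible, and 95% intervals below cover counting error only. A size was set instead: at least 10 CPM on average and 50 UMIs in all, VC at least 1.5-fold from both FLOX and WT in one direction, that distance being wider than the one between FLOX and WT. Of the 8 genes, 4 were measured at that level in LepR stromal cells, 5 in arterial and 5 in sinusoidal cells, and 0 passed the size in any class. Over all genes measured, 1.43% passed in LepR stromal cells (79 higher and 44 lower of 8626), 5.48% in arterial cells (156 and 243 of 7279) and 1.73% in sinusoidal cells (119 and 25 of 8309). With median-of-ratios scaling those splits were 95 and 25 in LepR stromal and 209 and 170 in arterial cells. The same size set for FLOX picked 0.545%, 2.73% and 0.349% of genes in the 3 classes, and set for WT 8.44%, 15.1% and 1.95%.

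**Figure D3:**
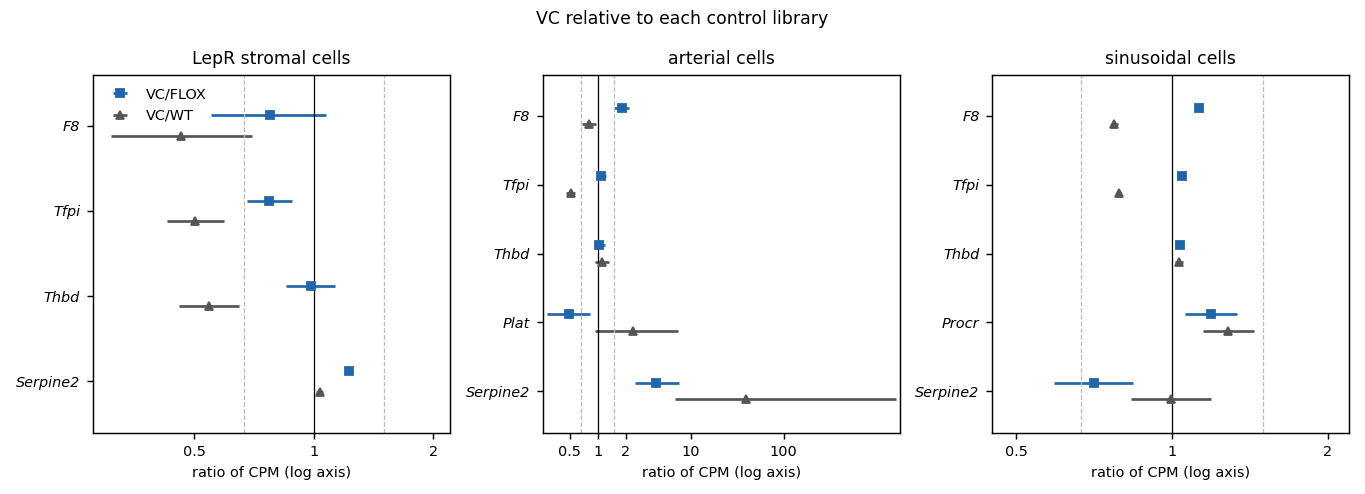
Ratio of CPM in VC to FLOX (blue squares) and to WT (grey triangles), on log axes that differ between panels, for the members measured in each class, with conditional exact 95% intervals that cover counting error. Dashed lines mark 1.5-fold. In sinusoidal cells every ratio lies between 0.708 and 1.29, and in LepR stromal cells F8, Tfpi and Thbd lie left of the lower dashed line against WT and not against FLOX.

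In sinusoidal cells the 4 endothelial genes measured differed little between VC and its controls. F8 was 1.13-fold its FLOX level (1.11 to 1.15) and 0.774-fold its WT level (0.763 to 0.786), and Tfpi 1.04-fold (1.03 to 1.06) and 0.791-fold (0.783 to 0.798). FLOX lay below WT by as much or more, with FLOX/WT ratios of 0.687 for F8 and 0.757 for Tfpi, so WT was the library apart for both. Thbd was flat, at 1.03-fold its FLOX and 1.03-fold its WT level. Procr was 1.19-fold (1.06 to 1.34) its FLOX and 1.29-fold (1.15 to 1.44) its WT level, the highest of its 3 levels being in VC. Over all genes measured in these cells the median log2 ratio was -0.03 against FLOX and -0.14 against WT. With median-of-ratios scaling the log2 ratios of VC to WT were -0.22 for F8, -0.19 for Tfpi and 0.19 for Thbd, with the same signs.

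In LepR stromal cells F8, Tfpi and Thbd were lower in VC than in WT, at 0.463-fold (0.308 to 0.697), 0.502-fold (0.426 to 0.592) and 0.543-fold (0.456 to 0.646). Against FLOX they were 0.774-fold (0.551 to 1.07), 0.772-fold (0.676 to 0.879) and 0.981-fold (0.851 to 1.13), and FLOX in turn lay below WT, at 0.598-, 0.651- and 0.553-fold. The pan-endothelial markers in the same cells summed to 25.4, 52.7 and 67.8 CPM in VC, FLOX and WT, moving with F8 and Tfpi. B lineage cells, taken as cells that should lack these genes, were likewise lower in VC than in WT. In VC, FLOX and WT they held 4.46, 5.02 and 11.6 CPM of F8 and 7.81, 9.46 and 32.8 CPM of Tfpi. Their Thbd was 14.5, 13.5 and 46.5 CPM. The part of other cells' RNA in the LepR stromal ratios was not tested. Serpine2 in LepR stromal cells of VC was 1.23-fold (1.21 to 1.24) its FLOX level and 1.03-fold (1.01 to 1.05) its WT level.

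In arterial cells Tfpi was 1.09-fold (0.979 to 1.22) its FLOX and 0.515-fold (0.460 to 0.576) its WT level, and F8 1.81-fold (1.5 to 2.17) and 0.807-fold (0.672 to 0.971). For both genes FLOX and WT differed by more than VC did from the nearer of them, and the WT cells lacked several arterial markers. Thbd was 1.05-fold (0.914 to 1.20) and 1.11-fold (0.941 to 1.32). Plat was 0.495-fold (0.284 to 0.827) its FLOX level and 2.41-fold (0.934 to 7.34) its WT level. Serpine2 was 4.28-fold (2.55 to 7.45) its FLOX level, of which 38 of 55 VC UMIs came from 1 cell, and the ratio against WT rests on 1 UMI. Of the 65 other clotting genes, not all of which were measured at the level required, Msr1 in arterial cells was the 1 past the size. It stood at 8.14 CPM in VC (8 UMIs) against 27.4 in FLOX and 78.8 in WT, where the arterial label did not hold. Over all genes measured in arterial cells 5.48% passed.

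Sinusoidal cells of all libraries differed in Cxcl9, a chemokine gene induced by interferon: 968 of 1643 VC cells, 253 of 3200 FLOX cells and 437 of 2992 WT cells had at least 5 Cxcl9 UMIs, and 406, 1659 and 1204 had 0. Cells with Cxcl9 were deeper, at medians of 11723, 10959 and 14885 UMIs against 9048, 7067 and 9608.5. In VC, Thbd was 853 CPM in cells with Cxcl9 and 1063 CPM in cells without it, a ratio of 0.802 (0.774 to 0.830). The ratio was 1.00 (0.964 to 1.04) in FLOX and 1.09 (1.05 to 1.12) in WT, so the direction was not shared. Tfpi was lower in cells with Cxcl9 in each library, at 0.860-fold in VC, 0.958-fold in FLOX and 0.940-fold in WT, and F8 was higher, at 1.15-, 1.04- and 1.05-fold. Procr stood at 26.1 against 26.2 CPM in VC, a ratio of 0.996 (0.801 to 1.25).

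**Figure D4:**
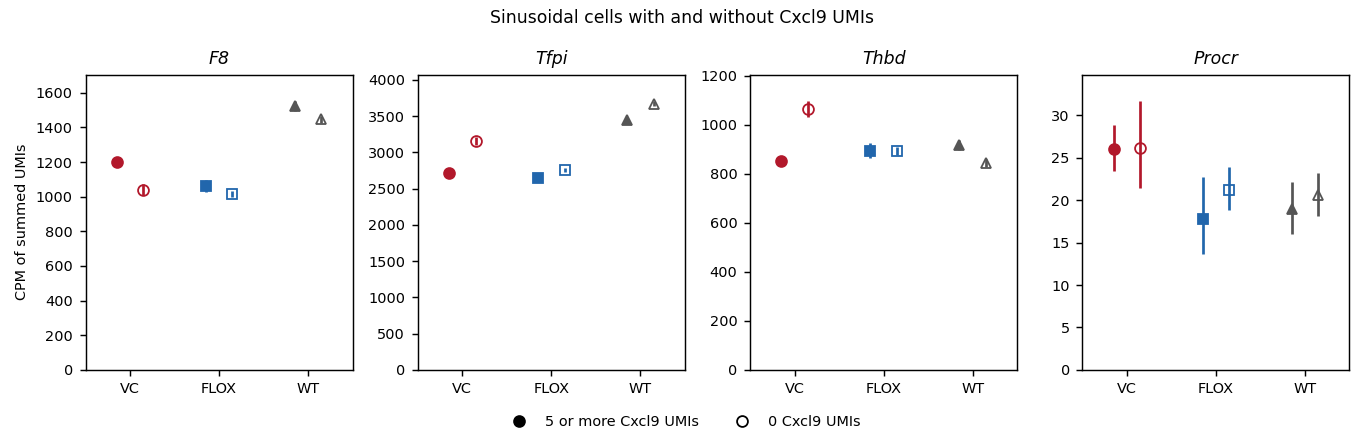
CPM of summed UMIs of F8, Tfpi, Thbd and Procr in sinusoidal cells with at least 5 Cxcl9 UMIs (filled) and with 0 (open), left to right for VC, FLOX and WT, with exact Poisson 95% intervals. Thbd in VC is 853 against 1063 CPM, the widest gap in the Thbd panel, while in WT the filled symbol is the higher one.

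Cells next to the class thresholds shaded into each other. Sinusoidal cells with exactly 2 Stab2 UMIs held 650, 618 and 560 CPM of F8 in VC, FLOX and WT, and cells just outside with 1 held 813, 608 and 656 CPM. Arterial cells with exactly 2 of the 4 arterial genes held 439, 233 and 419 CPM of F8, and barcodes just outside with 1 held 562, 462 and 433 CPM. Both groups just outside are part of the other barcodes with a Cdh5 UMI, which are not a clean endothelial class. With 3 or 4 of the arterial genes F8 was 197, 112 and 233 CPM and Tfpi 403, 340 and 979 CPM. At the Cxcl12 threshold 1, 8 and 5 cells lay just inside (50 to 59 UMIs) and 5, 6 and 4 just outside (40 to 49), with Serpine2 at 5260, 6139 and 1984 CPM inside and 5491, 2747 and 3596 CPM outside.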

How the data were processed

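Single-cell 3′-end RNA libraries (10x Chromium, reagent kit 3.1) were analysed from the raw UMI counts per gene and barcode that the authors deposited. Build mm10 and the tools Seurat 3.1 and Cell Ranger 2.1.1 are given by the submitters' processing notes, and per the file headers the matrices were written by software version 3.1.0; which steps each tool did is not stated. Raw counts of LepR stromal, arterial and sinusoidal cells were summed per library and tested with edgeR 4.0.16 in R 4.3.3 (TMM factors, filterByExpr, quasi-likelihood, library as block, adjusted p under 0.05); SE is the absolute log2 fold change over the root of the F statistic. DESeq2 1.42.0 was an alternative. Libraries hold 1 genotype each and nothing states how many animals they pool. The p-values set a class difference against its spread over these 3 libraries, after the block takes out each library's own level. Genotypes were compared by a rule of size, with 0 counts set at 3 UMIs. Intervals (95%: exact Poisson for CPM, conditional exact for ratios) and limits from a count of 0 cover counting error only. Shares were compared after thinning to 2000 UMIs with numpy 2.4.6. Scrublet in scanpy 1.11.5 called 9, 72 and 10 doublets in VC, FLOX and WT; cells it called or scored highest were left out as an alternative. Named pathway genes were the 4 largest called changes in each direction per contrast, plus examples chosen after their values were seen. Some genes that this rule picks are not reported here. Members and lists were chosen with earlier results of these data known. The tests were tested on simulated data.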

Additional observations from a re-analysis of the deposited data

Results flagged for a closer look

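Each value here lies in barcodes outside the 3 classes, and both groupings were chosen after values were seen. Vwf reached 294 CPM in WT barcodes with at least 5 Pf4 UMIs (40 UMIs in 24 barcodes); Pf4 is a platelet and megakaryocyte gene. VC had 2 Vwf UMIs in 5 such barcodes and FLOX 0 in 6. Procr reached 79.1 CPM in FLOX barcodes with Meis1 and Hlf, genes of blood stem and progenitor cells, and no Cdh5 (179 UMIs in 176 barcodes). It was 36.8 CPM in VC (27 barcodes) and 26.7 CPM in WT (6 barcodes). No difference between libraries was tested. With 1 library per genotype, no group was large enough to look for a sample far from the others.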

How the results depend on the processing

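No paired analysis was possible because each genotype is 1 library; in the class contrasts the library was the block. With no replicate block 7133, 6020 and 2694 genes were called for LepR stromal against sinusoidal, LepR stromal against arterial and arterial against sinusoidal cells, and no member's call changed. Leaving out 1 library moved the last count between 1461 (without FLOX) and 3710 (without WT), with 1937 without VC. Under the alternatives 219 log2 fold changes of members kept direction and call, 2 turned sign, 8 became called and 2 were lost. The Vwf difference between LepR stromal and arterial cells was 0.37 without FLOX and -1.71 without WT, where it was called (edgeR adjusted p = 0.0148). The Serpine2 difference between arterial and sinusoidal cells was -0.48 without VC and 1.55 without FLOX, and was called with no count filter (edgeR adjusted p = 0.0069). The causes were not tested. F3, which the count filter left out, was called higher in LepR stromal than in sinusoidal cells with no filter and without WT. Vwf and Plat, not called between LepR stromal and sinusoidal cells, were each called under 3 alternatives. The members past the size in arterial cells numbered 1, Serpine2, with at least 1000 genes and at most 5% mitochondrial UMIs; its log2 ratio of VC to FLOX was 0.38 without cells called or scored highest by Scrublet. Depth limits F3, Vwf and Plat, which rest on few UMIs, and the WT arterial class holds 58 cells.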
